A study of Mus musculus with 4 samples.

Results

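The genes described here are 10 members of the small leucine-rich proteoglycan family: Dcn (decorin), Bgn (biglycan), Aspn (asporin), Lum (lumican), Fmod (fibromodulin), Prelp, Kera (keratocan), Omd (osteomodulin), Epyc (epiphycan) and Ogn (osteoglycin). They were taken by name from the 21951 protein-coding genes of the GENCODE vM21 annotation of GRCm38, by a rule that uses no measured value, although earlier results of these data were known when they were picked. Each was examined for peaks of transcription initiation within 500 bp of any annotated start (a promoter peak), in its body, and within 20 kb on either side.

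The peaks came from 4 PRO-seq libraries of mouse embryos at stage E14.5, 2 of liver and 2 of yolk sac, each made from tissue pooled from 6 embryos. PRO-seq, a run-on method in which polymerases extend their transcripts by labelled nucleotides, locates engaged RNA polymerase, and dREG is a classifier that marks where initiation occurs. All 4 libraries carried the same cross: mothers were C57BL/6J, fathers were of mixed C57BL/6J and CAST/EiJ background and were chosen for CAST/EiJ variants at Dlk1/Gtl2, and the strain label of every library reads Mixed C57BL/6h and CAST/EiJ. No treatment or mutant allele separated the groups, which differed in tissue only. Whole tissue was used, so each list mixes several cell types.

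Small leucine-rich proteoglycans are secreted matrix proteins built around a curved core of leucine-rich repeats. Many bind fibrillar collagen and shape the spacing and thickness of its fibrils, and decorin and biglycan also bind growth factors such as TGF-beta. They are typical products of fibroblasts and other connective-tissue cells. In the fetal liver such cells are interspersed among blood-forming and hepatic cells, while the yolk sac has a mesoderm layer beneath its endoderm.

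The 10 genes lie at 4 places in the genome. Dcn, Lum, Kera and Epyc follow one another on chromosome 10, with gaps of 46.98, 34.2 and 30.4 kb. Aspn, Omd and Ogn form a tight row on chromosome 13, with gaps of 14.9 and 15.2 kb, inside the Cenpp gene, which is transcribed from the opposite strand. The Prelp body overlaps the antisense gene Gm15851. Prelp and Fmod are 115.8 kb apart on chromosome 1, and Bgn stands alone on chromosome X. dREG peaks carry no strand, so a peak there cannot be given to Cenpp or Gm15851 rather than to the gene on the other strand.

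Both yolk sac lists marked initiation at the starts of 7 of the 10 genes (63.8% of all protein-coding genes in replicate 1 and 62.4% in replicate 2), and the liver lists at 1 and 2. Dcn, Bgn, Lum, Fmod, Prelp, Omd and Ogn had promoter peaks in both yolk sac lists, where 61.9% of all protein-coding genes did. In liver replicate 1 the only promoter peak was at Prelp (56.1% of all genes had one in that list), and in liver replicate 2 there were promoter peaks at Dcn and Lum (57.9% of all genes). Bgn, Fmod, Omd and Ogn were called in yolk sac only, 4 of 10 against 5.25% of all genes, and no member was called in liver only, against 1.01% of all genes. Aspn, Kera and Epyc had no promoter peak in any list, as did 34.2% of all genes. No member was called in all 4 lists, as 53.8% of all genes were. Liver averaged 1.5 ± 0.707 members with a call at the start, and yolk sac 7 ± 0 (SD, n = 2 libraries each), and the tissues did not overlap. Because the genes were picked with earlier results known, no p is given for these counts.

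The sequences below are the starts of 6 of these genes, and how alike they are was not measured. Of the 6, 5 carried a yolk sac promoter peak, and the start of Aspn is shown because it carried none. Each is the RefSeq window from 250 bases before to 50 after the start (GRCm38.p6), 5′ to 3′ on the gene's strand, and capitals mark matches on either strand to the motifs named after them. Of the 10 genes 8 had a window in the RefSeq table, and Dcn and Lum had none. In both yolk sac lists a peak covered all 300 bases of the windows of Fmod, Bgn, Ogn, Omd and Prelp. In liver replicate 1 a peak covered 101 bases of the Prelp window, and no other liver peak touched any of the windows.
Ogn: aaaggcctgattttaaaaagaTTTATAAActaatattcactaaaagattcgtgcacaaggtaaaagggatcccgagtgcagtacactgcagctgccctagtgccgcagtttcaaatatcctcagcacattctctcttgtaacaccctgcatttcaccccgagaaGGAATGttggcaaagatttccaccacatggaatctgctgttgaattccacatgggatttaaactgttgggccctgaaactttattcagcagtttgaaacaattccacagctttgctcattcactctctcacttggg
Omd: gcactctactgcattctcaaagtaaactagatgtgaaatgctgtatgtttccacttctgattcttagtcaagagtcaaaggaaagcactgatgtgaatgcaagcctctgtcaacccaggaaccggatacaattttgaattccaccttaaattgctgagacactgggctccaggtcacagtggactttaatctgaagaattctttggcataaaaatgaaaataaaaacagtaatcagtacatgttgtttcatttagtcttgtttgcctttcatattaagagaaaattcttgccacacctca
Aspn: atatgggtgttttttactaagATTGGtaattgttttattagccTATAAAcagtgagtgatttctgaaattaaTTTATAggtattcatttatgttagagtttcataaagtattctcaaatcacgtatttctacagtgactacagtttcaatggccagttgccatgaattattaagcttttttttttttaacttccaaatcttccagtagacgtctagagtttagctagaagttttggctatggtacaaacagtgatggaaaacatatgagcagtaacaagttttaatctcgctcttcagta
Fmod: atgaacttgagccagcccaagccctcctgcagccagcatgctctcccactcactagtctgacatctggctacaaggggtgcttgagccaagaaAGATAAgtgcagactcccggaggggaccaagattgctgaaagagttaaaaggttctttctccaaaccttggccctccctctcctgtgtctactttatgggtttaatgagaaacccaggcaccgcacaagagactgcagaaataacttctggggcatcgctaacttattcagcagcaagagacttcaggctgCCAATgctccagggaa
Prelp: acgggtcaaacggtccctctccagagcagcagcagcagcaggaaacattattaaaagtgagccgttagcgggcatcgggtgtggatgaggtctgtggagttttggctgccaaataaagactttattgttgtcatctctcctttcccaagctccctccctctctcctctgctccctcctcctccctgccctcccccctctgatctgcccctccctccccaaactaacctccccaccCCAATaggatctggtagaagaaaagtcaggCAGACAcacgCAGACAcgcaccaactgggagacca
Bgn: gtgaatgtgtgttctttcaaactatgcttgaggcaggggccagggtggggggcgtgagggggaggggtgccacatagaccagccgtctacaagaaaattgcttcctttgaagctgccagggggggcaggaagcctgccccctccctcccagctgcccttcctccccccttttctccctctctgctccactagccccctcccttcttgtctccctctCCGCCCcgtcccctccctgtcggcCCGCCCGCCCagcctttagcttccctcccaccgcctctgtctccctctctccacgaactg
The Ogn window is chr13:49607765-49608064, the Omd window chr13:49582212-49582511 and the Aspn window chr13:49544193-49544492, all on the plus strand. The Fmod window is chr1:134037004-134037303 on the plus strand, the Prelp window chr1:133921352-133921651 on the minus strand, and the Bgn window chrX:73483351-73483650 on the plus strand.

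Short motifs were searched on both strands, with the RefSeq start as base 0. Ogn had overlapping matches to the TATA box, TATAAA, at bases -229 to -222, which 13.6% of all 32851 windows hold. It also had a match to GGAATG, the TEAD motif, at bases -86 to -81 (14.7% of windows). Bgn had 3 matches to the GC box, GGGCGG, at bases -34 to -29, -10 to -5 and -6 to -1, the last pair overlapping (35.7% of windows). Prelp had matches to a SMAD motif, CAGACA, at bases 15 to 20 and 25 to 30 (21.04% of windows). It also had a match to the CCAAT box, read as those letters, at bases -15 to -11 (37.4% of windows). Fmod had a match to a GATA motif, AGATAA, at bases -157 to -152 (11.2% of windows) and a match to CCAAT at bases 34 to 38. Aspn had matches to the letters TATAAA at bases -207 to -202 and, on the minus strand, -178 to -173. It also had a match to CCAAT on the minus strand at bases -229 to -225. Omd held none of the 8 motifs searched. The AP-1 motif TGANTCA was in none of the 9 windows of the 8 genes, and 7.81% of all windows hold it. The E-box CACCTG was likewise in none, and 20.2% of all windows hold it. No motif was shared by all 5 windows with a yolk sac peak, which the lack of any match in Omd alone settles. The windows of Omd, Fmod and Ogn had 1, 3 and 4 CG dinucleotides, those of Prelp and Bgn 7 and 9, and the median window of the table had 7. A match describes the letters only, and the part of any factor was not tested.

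**Figure D1:**
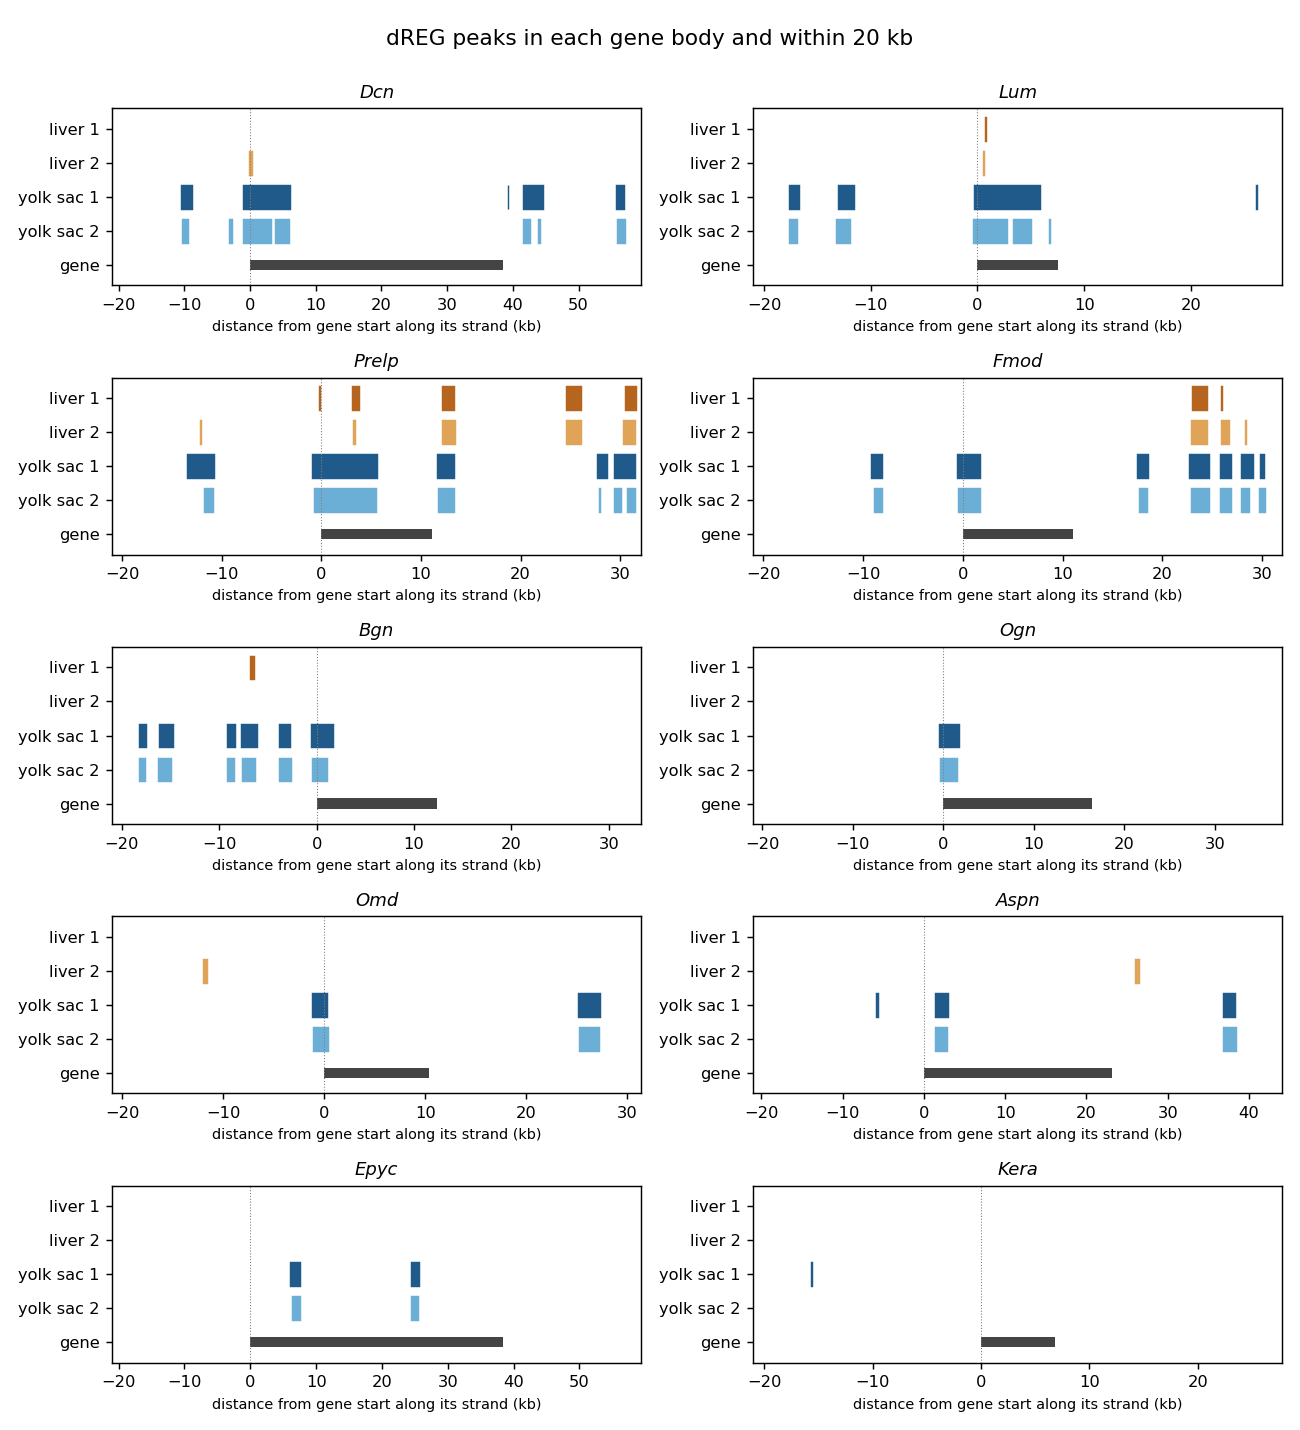
Peaks of each library drawn by their distance in kb from the gene start along its strand, with the gene body in grey. Each panel shows 1 gene with 20 kb on either side, and bars have the width of the peaks apart from a thin outline. Yolk sac rows hold broad peaks at the starts of Dcn, Lum and Prelp, and liver rows hold few peaks except downstream of Prelp and Fmod.

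Decorin, biglycan and asporin are the class I members. Dcn (chr10:97479609-97518143, plus strand) encodes decorin, which coats collagen fibrils and sequesters growth factors. In yolk sac replicate 1 a peak of 7202 bp covered its first start (chr10:97478501-97485702), at the 99.9 percentile of width among that list's promoter peaks and at the 60.4 percentile of its scores. In yolk sac replicate 2 the same stretch was called as 2 peaks, of 4302 and 2202 bp, with the wider at the 64.7 percentile of the score. The peak in liver replicate 2 was 502 bp wide, at the 22.1 percentile of the score, and liver replicate 1 had no peak within 82514 bp of a Dcn start. The liver lists thus disagreed at Dcn, and the one liver peak was narrower than either yolk sac peak. The wide stretch held 941 exonic and 196 coding bases of Dcn, and the rest was intronic or upstream. Locus counts, the peaks in the body and within 20 kb, were 0 and 1 in liver against 5 and 7 in yolk sac.

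The yolk sac peaks around Dcn went beyond its promoter. A region at chr10:97469151-97470802, upstream of the gene, was called in both yolk sac lists and in neither liver list, with score percentiles of 47.5 and 44.7. Past the end of the gene, the regions chr10:97521201-97524202 and chr10:97535351-97536602 were also called in both yolk sac lists only. None lay within 500 bp of another annotated start.

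Bgn (chrX:73483602-73495933, plus strand) encodes biglycan, the closest relative of decorin, which also acts as a danger signal through innate immune receptors. Its promoter peak was 2252 bp in yolk sac replicate 1 and 1602 bp in replicate 2, at the 40.6 and 39.8 percentiles of the score. Neither liver list had a peak at the Bgn starts, and the nearest lay 6400 bp away in replicate 1 and 24050 bp away in replicate 2. All 5 further yolk sac regions of Bgn lay upstream of it. The leading 3 by the lower of their score percentiles were chrX:73475851-73477452 (52.5 and 63.1), chrX:73479751-73480952 (51.4 and 49.7) and chrX:73474401-73475252 (79.2 and 42.5). Liver replicate 1 had 1 peak of 402 bp within the first of these, at the 22.7 percentile. Locus counts were 1 and 0 in liver against 6 and 6 in yolk sac. The Bgn promoter was the lowest-scoring of the 7 yolk sac promoters, and with lists of equal length, the 24333 highest-scoring peaks of each, no library called it.

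Aspn (chr13:49544443-49567565, plus strand) encodes asporin, which binds collagen and calcium. Its start had no peak in any list, but both yolk sac lists had a peak inside the gene, 1264 bp from the nearest start in replicate 1 and 1314 bp in replicate 2. Their widths were 1702 and 1452 bp, and their score percentiles 63.2 and 48.9. The region (chr13:49545751-49547452) held no exonic base of Aspn and was therefore intronic. No liver list had a peak in the Aspn body, and liver replicate 2 had 1 of 402 bp between Aspn and Omd, at the 22.3 percentile. Locus counts at Aspn, 0 and 1 in liver against 3 and 2 in yolk sac, include the promoter peak of Omd, and those at Omd, 0 and 1 against 2 and 2, include that of Ogn.

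**Figure D2:**
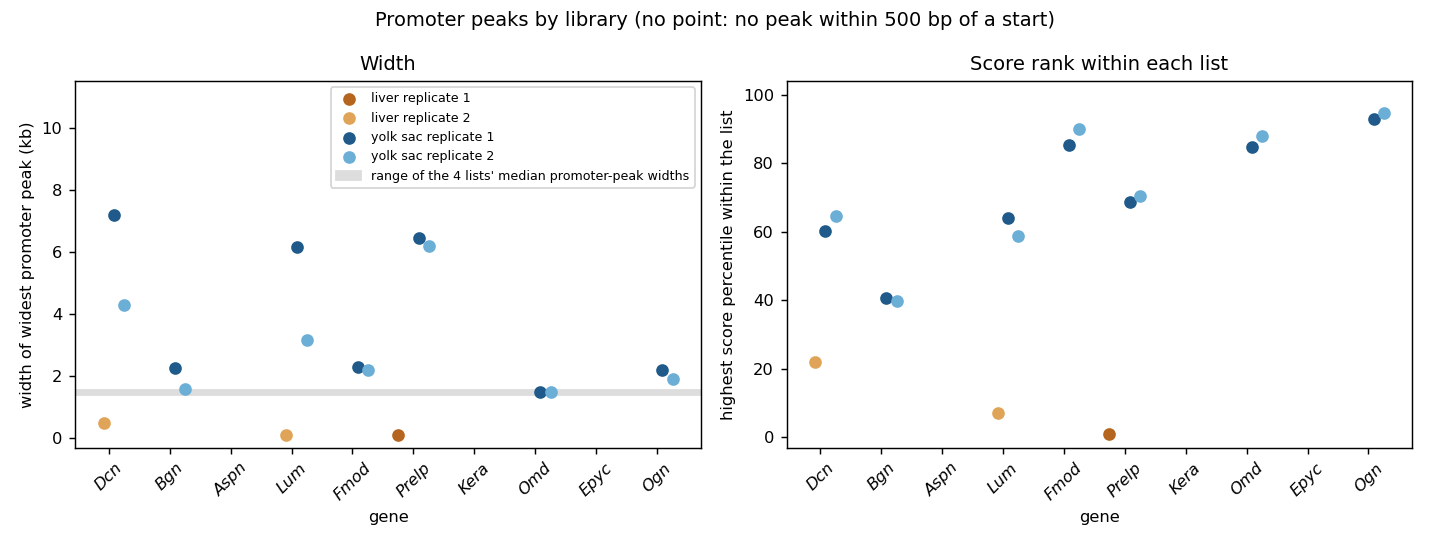
Widest promoter peak (left, kb) and highest score percentile within the list (right) for each gene and library. Points stand for single libraries, and the grey band runs between 1402 and 1552 bp, the lowest and highest median width of promoter peaks in the 4 lists. Yolk sac points lie within the band at Omd and above it at the other genes with a promoter peak. They are highest at Dcn, Lum and Prelp, and the liver points at these 3 genes lie below the band.

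Lumican, fibromodulin, Prelp, keratocan and osteomodulin are the class II members, several of which carry keratan sulfate chains. Lum (chr10:97565128-97572703, plus strand) encodes lumican, which regulates fibril assembly in cornea, skin and other tissues. Its promoter peak was 6152 bp wide in yolk sac replicate 1 (64.1 percentile of the score) and 3152 bp in replicate 2 (58.8 percentile). With the further peaks in the gene, 77.5% and 59.1% of the Lum body lay inside yolk sac peaks. The median was 13.97% and 12.2% for genes of 0.5 to 2 times its length that had a promoter peak in the same list, among which Lum stood at the 99.8 and 98.96 percentiles. The Lum region called in yolk sac held 1641 exonic bases, 862 of them coding. Each liver list had 1 peak of 102 bp in Lum, the smallest width in any list, at score percentiles of 9.74 and 7.24.

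The Lum peaks in liver straddled the 500 bp limit. The one in replicate 2 lay 473 bp from the start and counted as a promoter peak, and the one in replicate 1 lay 723 bp away and did not. With a limit of 250 bp Lum was called in yolk sac only, and with 1000 bp it was called in all 4 lists. The liver lists at Lum therefore differ in where a small peak was placed, whereas at Dcn 1 list had a peak and the other had none. Upstream of Lum, the regions chr10:97547451-97548402 and chr10:97551851-97553552 were called in both yolk sac lists and in neither liver list. Locus counts at Lum were 1 and 1 in liver and 4 and 5 in yolk sac.

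Fmod (chr1:134037254-134048277, plus strand) encodes fibromodulin, a collagen-binding protein that directs cross-linking. Its promoter peak measured 2302 and 2202 bp in the yolk sac lists, at the 85.4 and 89.9 percentiles of the score. The liver lists had no peak nearer than 22705 and 22605 bp. Its flanks held both shared and yolk sac regions: chr1:134028051-134029152 upstream and chr1:134054701-134055852 downstream were called in both yolk sac lists only, with lower percentiles of 88.0 and 73.4, while chr1:134059951-134061952 was called in all 4 lists. Locus counts were 2 and 3 in liver against 7 and 7 in yolk sac. The liver lists thus had no peak at the Fmod start, although an initiation region farther downstream was called there.

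Prelp (chr1:133910304-133921414, minus strand) encodes a proline- and arginine-rich protein that anchors basement membranes to connective tissue. Its yolk sac promoter peaks were 6452 and 6202 bp wide, at the 99.9 percentile of width in each list, and covered 50.1% and 49.6% of the gene body. For genes of like length with a promoter peak the medians were 10.2% and 8.95%. Of this stretch 160 bases were exonic and none coding. In liver replicate 1 the promoter peak was 102 bp wide, 137 bp from the nearest start, at the 0.941 percentile of the score. Liver replicate 2 had none, and its nearest peak was 3159 bp into the gene. Both liver lists had that internal peak, of 652 and 252 bp, inside the stretch that the yolk sac lists called as 1 broad peak.

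Around Prelp the tissues shared several regions. Locus counts were 5 and 5 in liver and 5 and 6 in yolk sac, so the tissues overlapped, as they did at Kera. The region chr1:133908001-133909752 was called in all 4 lists, at percentiles of 65.2 and 99.2 in liver and 97.4 and 90.3 in yolk sac. It lies by the start of Optc, which encodes opticin, a further family member. A region called in both liver lists and in neither yolk sac list, the 1 such among the 37 regions at the 10 genes, lay at chr1:133895301-133896852, with percentiles of 83.8 and 88.0, and chr1:133889851-133892052 was called in all 4 lists.

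Kera (chr10:97606879-97613692, plus strand), which encodes the corneal proteoglycan keratocan, was nearly empty. The only peak in its body or within 20 kb was 1 of 102 bp in yolk sac replicate 1, 15577 bp from its start. Omd (chr13:49582462-49592822, plus strand) encodes osteomodulin, a protein of bone matrix. It had a promoter peak of 1502 bp in both yolk sac lists, at the 84.6 and 88.1 percentiles of the score, and none in liver. These peaks lay mostly upstream of the gene, from -1211 to 290 bp and from -1161 to 340 bp around its first start. At 1502 bp they were close to the median promoter width of their lists, 1552 and 1452 bp. Omd and Prelp, both class II, thus differed in peak width by over 4 times in each yolk sac list.

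Epiphycan and osteoglycin are the class III members. Ogn (chr13:49608046-49624501, plus strand) encodes osteoglycin, also called mimecan. It had the highest-scoring promoter peak of the 10 genes, at the 92.8 percentile of yolk sac replicate 1 and the 94.8 percentile of replicate 2, with widths of 2202 and 1902 bp. The nearest liver peaks were 43505 and 37194 bp away, and apart from its promoter peak no list had a peak in the Ogn body or within 20 kb of it. Epyc (chr10:97644068-97682454, plus strand) encodes epiphycan, a cartilage protein. It had no promoter peak, but both yolk sac lists had 2 peaks in its body, at chr10:97650151-97651552 (59.9 and 27.1 percentiles of the score) and chr10:97668451-97669702 (80.0 and 86.8). Neither region held an exonic base of Epyc, and no liver list had a peak within 78116 bp of an Epyc start.

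Among the 7 yolk sac promoters, width and score rank were highest at different genes. Dcn, Lum and Prelp had the widest peaks and score percentiles from 58.8 to 70.4. Ogn, Fmod and Omd had score percentiles from 84.6 to 94.8 and widths from 1502 to 2302 bp. Bgn had widths in that same range and the lowest score percentiles. The yolk sac replicates were closer in width at Fmod, Prelp, Ogn and Omd than at Dcn and Lum, where replicate 2 split the stretch.

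**Figure D3:**
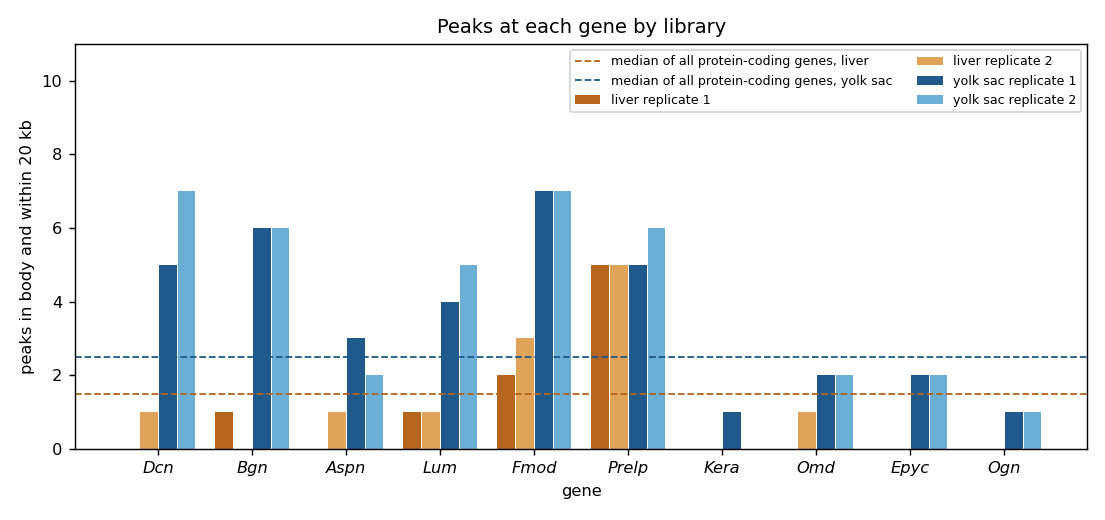
Number of peaks in the body and within 20 kb of each gene, with 1 bar per library. Dashed lines mark the medians over all protein-coding genes, 1.5 peaks in liver and 2.5 in yolk sac. Both yolk sac bars are higher than both liver bars at all genes but Prelp and Kera.

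With each peak counted once, the bodies and 20 kb flanks of the 10 genes held 9 and 11 peaks per liver list, against 33 and 36 per yolk sac list. The means were 10 ± 1.41 and 34.5 ± 2.12 (SD, n = 2). Both yolk sac counts exceeded both liver counts at 8 of 10 genes, against 36.2% of all protein-coding genes, and the reverse held at none, against 5.87%. At each of the 8 genes the exact two-sided permutation p was 0.333, the smallest that 2 libraries against 2 can give, and the Benjamini-Hochberg adjusted p over all 21951 genes was 0.792. No gene could pass a threshold in this design. The median difference was 2 peaks over the 10 genes and 0.5 over all genes. Within gene bodies alone the counts were 2 and 3 in liver and 9 and 12 in yolk sac, and both yolk sac counts were higher at 5 genes (Bgn, Aspn, Fmod, Epyc and Ogn), against 21.3% of all genes. The reverse held in the body of no member, against 5.19%.

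The lists differ in length, at 24863 and 24333 liver peaks against 50525 and 43055 yolk sac peaks, and the files hold no read counts, so depth is unknown and its part in the differences was not tested. In the equal-length lists 6 members still had promoter peaks in both yolk sac lists (51.4% of all genes), of which 4 were called in yolk sac only. These 4 (2.61% of all genes) were Fmod, Prelp, Omd and Ogn. The liver lists had promoter peaks at 0 and 2 members. Liver replicate 2, the shortest list, was kept whole (57.9% of all genes). For the shortened liver replicate 1 no share of all genes was taken, so its 0 has no like background. Prelp joined them when its liver peak fell out, and none was called in liver only (3.01% of all genes). Locus counts were still higher in both yolk sac lists at 8 of 10 genes, where 11.2% of all genes were, and in both liver lists at none (20.3%), but the total fell to 8 and 11 liver peaks against 19 and 21 yolk sac peaks.

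By place in the genome, the stretch from 20 kb before Dcn to 20 kb past Epyc held 1 and 2 liver peaks against 12 and 15 yolk sac peaks. The Aspn to Ogn stretch held 0 and 1 against 4 and 3, the Prelp to Fmod stretch 8 and 9 against 20 and 21, and the Bgn stretch 1 and 0 against 6 and 6. The exact permutation p was 0.333 for each stretch, and these counts carry the difference in list length, under which 36.2% of single gene loci had both yolk sac counts above both liver counts. Merging the 4 lists gave 37 regions at the 10 genes, of which 20 were called in yolk sac only, or 54.1%, against 33.0% of all 61095 merged regions. A further 6 were called in all 4 lists (25.7% of all regions), and 1 in both liver lists only (6.62%). Of the 6, 2 were the promoter regions of Lum and Prelp. A merged region counts for a list with any peak in it, and there small liver peaks fell inside the wide yolk sac peaks. The starts of Lum and Prelp were not themselves called in all 4 lists. Of the 30 regions away from the members' starts, 16 were called in yolk sac only, or 53.3%. The 33.0% pools regions at and away from gene starts. No share was taken over all regions away from starts, so the 53.3% has no like background.

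At the 3 genes on which the liver lists disagreed, Dcn and Lum were called in replicate 2 and Prelp in replicate 1, against 3.58% of all genes called in exactly 1 liver list. Genes called in both yolk sac lists and 1 liver list made up 2.86% of all genes, and in 489 of these 627 that list was liver replicate 2. Without liver replicate 2, Dcn and Lum joined the genes called in yolk sac only, which then numbered 6. Without liver replicate 1, Prelp did, for a total of 5. Over all genes, 489 joined in the same way without liver replicate 2 and 138 without liver replicate 1. The 5.25% of the full lists is therefore no background for these totals, and no share was taken without a library. All 3 liver promoter peaks were narrow and low in rank. Because every list stops at a score of 0.80, an absent peak may have scored just below that.

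Genes that work with these proteoglycans were examined in lists taken from general knowledge, and 103 genes were covered in all. Of these, 75 and 84 were called in liver and 92 in each yolk sac list, a difference in means of 12.5 genes that was 8 without liver replicate 1 and 3.5 in the equal-length lists. Among 7 other small leucine-rich proteoglycan genes, 2 and 2 were called in liver and 5 and 5 in yolk sac. Ecm2, Chad (chondroadherin) and Podn (podocan) were called in yolk sac only, Optc and Tsku in all 4 lists, and Nyx and Podnl1 in none. In the equal-length lists Ecm2 alone of these was called in both yolk sac lists and in neither liver list. Ecm2 is the upstream neighbour of Aspn.

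The collagens to which the family binds included genes with yolk sac calls that 1 or both liver lists lacked. Of 13 genes for fibrillar, fibril-associated and type VI collagens, 7 and 10 were called in liver and all 13 in each yolk sac list. Col2a1, Col5a3 and Col6a1 were called in yolk sac only, and Col11a1, Col12a1 and Col14a1 in both yolk sac lists and liver replicate 2. In the equal-length lists Col2a1 and Col6a1 were still called in yolk sac only, and Col5a3 was called in no library. Col1a1, Col1a2 and Col3a1, the main fibril-forming chains, were called in all 4 lists. Of 18 genes for collagen processing and cross-linking, 12 and 15 were called in liver and 15 and 14 in yolk sac, with none in yolk sac only. Adamts2, Loxl1 and Loxl4 were called in both yolk sac lists and liver replicate 2. Pcolce2 went the other way, with calls in both liver lists and yolk sac replicate 1, and was called in liver only in the equal-length lists.

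Most enzymes that build the sugar chains were called in both tissues. Of 21 genes for chondroitin and dermatan sulfate synthesis, 20 and 21 were called in liver and all 21 in each yolk sac list. The exception was Ust, a sulfotransferase gene called in liver replicate 2 only of the liver lists. In the equal-length lists Chst12 and Chst13 were called in liver only. Of 8 genes for keratan sulfate synthesis, 5 and 6 were called in liver and 6 and 7 in yolk sac, with Chst1, a keratan sulfate sulfotransferase gene, missing in liver replicate 1. All 8 genes of receptors that bind decorin or biglycan were called in all 4 lists. Of 14 genes for TGF-beta ligands, receptors and their partners, 11 and 12 were called in liver and 13 and 13 in yolk sac. Among them Tgfb3 was called in yolk sac only and Ltbp4 in all but liver replicate 1. Of 14 large and heparan sulfate proteoglycan genes, 10 and 10 were called in liver and 11 and 11 in yolk sac, with none in yolk sac only. Vcan (versican) was missing in liver replicate 1, and Sdc2 (syndecan 2) in liver replicate 2.

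**Figure D4:**
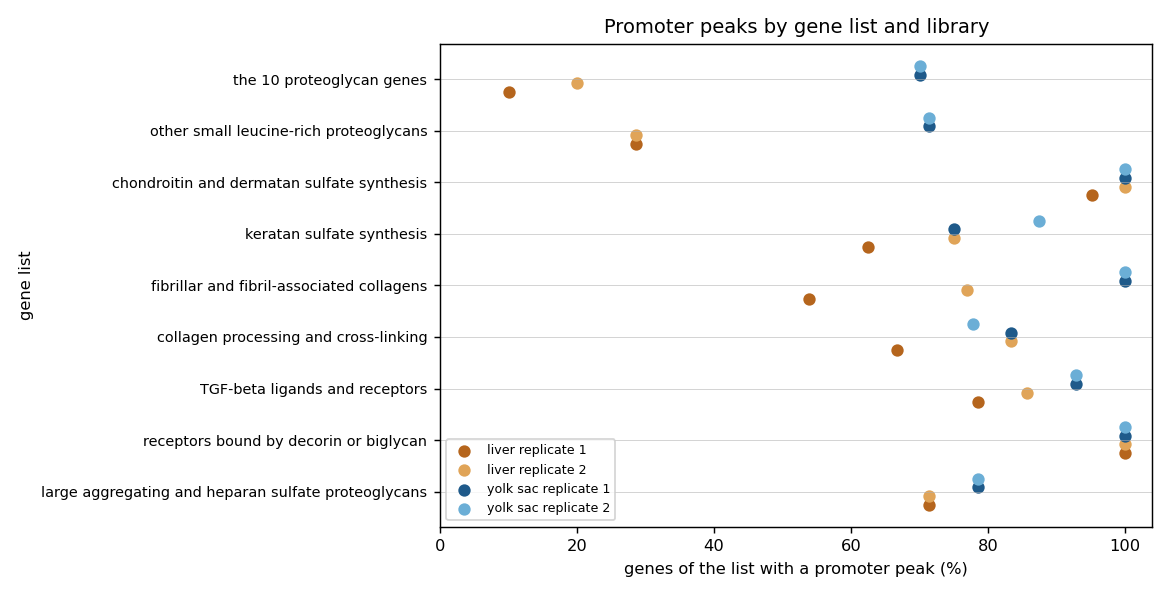
Percentage of the genes of each list with a promoter peak, with 1 point per library. The 10 proteoglycan genes and the other members of their family have liver points below 30% and yolk sac points at 70% or above, and the receptors and the chondroitin and dermatan sulfate enzymes have all points at or near 100%.

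Markers of the cell types that the tissues could hold were counted in the same way. All 6 fibroblast markers had promoter peaks in both yolk sac lists, and 5 and 6 did in the liver lists, where Pdgfra was missing in replicate 1. Of 6 hepatic stellate markers, 4 and 6 were called in liver and 4 and 5 in yolk sac. Reln was missing in yolk sac replicate 1 and Hand2 in liver replicate 1, and Lrat was called in liver replicate 2 alone. Of 6 mesothelial markers, 2 and 2 were called in liver and 6 and 6 in yolk sac, with Wt1, Msln, Upk3b and Krt19 in yolk sac only. Of 6 smooth muscle and pericyte markers, 1 and 1 were called in liver and 3 and 3 in yolk sac, with Myh11 and Cspg4 in yolk sac only and Tagln, Cnn1 and Rgs5 in no list. Of 5 endothelial markers, 3 and 4 were called in liver and 5 and 5 in yolk sac, with Emcn in yolk sac only and Tek also in liver replicate 2. In the equal-length lists the markers called in yolk sac only fell from 4 to 1 for mesothelium (Krt19). They fell from 2 to 1 for smooth muscle and pericytes (Cspg4) and from 1 to 0 for macrophages. They stayed at 1 for endothelium (Emcn) and at 2 for yolk sac endoderm (Amn and Cubn). The proteoglycan genes numbered 4 in both the full and the equal-length lists, with Prelp in place of Bgn in the latter. For mesothelial, smooth muscle, endothelial, yolk sac endoderm and macrophage markers both full yolk sac lists gave higher counts than both full liver lists. The same held for the proteoglycan genes, and the part of these cell types in the result was not tested. In the equal-length lists the hepatic stellate marker Reln, the hepatocyte marker Alb and the macrophage marker Cd68 were called in liver only. So were 5 erythroid markers, and none of the other lists had such a marker. In whole tissue, fewer cells of a type and less initiation per cell cannot be told apart.

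The tissue labels were checked on the remaining markers. Of 6 erythroid markers, 6 and 6 were called in liver and 1 and 1 in yolk sac, with Gata1, Klf1, Alas2, Slc4a1 and Ermap in liver only. Of 6 yolk sac endoderm markers, 4 and 2 were called in liver and 6 and 6 in yolk sac, with Amn and Cubn in yolk sac only. In liver replicate 2 Lrp2 and Afp of that list were missing. Of 6 hepatocyte markers, which yolk sac endoderm also expresses in part, 5 and 4 were called in liver and 5 and 5 in yolk sac. Serpina1a was called in no list, and Afp was missing in liver replicate 2. A marker can thus lack a call in a list of its own tissue, so a missing call alone does not show that initiation was absent. Of 5 macrophage markers, 3 and 3 were called in liver and 5 and 4 in yolk sac, with Adgre1 in yolk sac only. In the equal-length lists Adgre1 was called in no library.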

How the data were processed

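Each of the 4 libraries has 1 deposited list of dREG peaks with chromosome, start, end and a score. The deposited score is the authors' value, has no unit, was not scaled between libraries, and served to order and filter the peaks of 1 list at a time. The submitters' processing notes name Bowtie2, bedtools and mm10, without versions or roles. The dREG version and filters are not given in the sources used here. The lists were called per library, start at a score of 0.80, and leave gaps of at least 548 bp between peaks.

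Positions are 1-based GRCm38, and starts came from all GENCODE vM21 transcripts. A promoter peak lay within 500 bp of a start, by at least 1 base, and other peaks were placed by midpoint. A score percentile is the share of a list's peaks at or below that score. Python 3.11.15, numpy 2.4.6, pandas 2.3.3 and matplotlib 3.10.9 were used. Calls and counts were tested on simulated lists of 200 genes, and all 200 were returned. Locus counts were tested with the exact permutation test over 6 assignments. All 10 members are named. Of the other lists, the text names genes called in 1 tissue alone (both libraries) or in both yolk sac and 1 liver library, and the 3 leading regions per locus. Some genes with other call patterns were named after their values were seen. Alternatives changed the window, the flank, peak placement and list length, and left out each library. No protein sequences were used here. Members and lists were chosen with earlier results of these data known. Whether the libraries of a tissue came from separate pools is not stated, so their spread may be technical.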

Additional observations from a re-analysis of the deposited data

How the results depend on the processing

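A count or a difference in counts was taken as changed when it moved by more than 1.5 times. The difference in members with a promoter peak (5.5) ranged from 5 to 6 over all alternatives, and without 1 library from 5 to 6. The members called in yolk sac only (4) numbered 4 to 6, and the loci with more peaks in both yolk sac lists (8) numbered 6 to 9. Without 1 library these ranged from 4 to 6 and from 8 to 9. Shares over all genes were taken for the full and the equal-length lists only, so the counts under the other alternatives have no background. The difference in peaks in bodies and within 20 kb (24.5) fell to 10.5 in the equal-length lists and 13.5 in the higher-scoring 50% of each list, and was 23 to 26 without 1 library. The difference within bodies (8) fell to 5 in the equal-length lists and was 6.5 to 9.5 without 1 library. The difference over the 103 companion genes (12.5) was 3.5 in the equal-length lists, 34 in the higher-scoring 50%, and 8 without liver replicate 1 to 17 without liver replicate 2. None of these differences changed direction. The difference at the Prelp locus (0.5) was reversed, to -0.5, with a flank of 10 kb and in the equal-length lists; the cause was not tested. In the higher-scoring 50% the Bgn promoter was called in no list, as in the equal-length lists.

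With the replicate block, the differences of 5.5, 24.5 and 8 and the count of 8 loci were the same, and the smallest exact permutation p rises to 0.5. The labels do not say whether libraries with the same number share embryos or a batch. The replicate differences correlated at -0.00311 between tissues over 21951 genes. This value cannot decide the question, because the median gene locus held only 1.5 liver and 2.5 yolk sac peaks.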
